A study of Homo sapiens with 2 samples.

Results

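The genes described here copy the DNA of the cell and carry it through S phase. They form a list of 58 genes drawn from the known roles of their products, with earlier results of these data known. The list covers origin recognition, licensing, helicase activation, the polymerases, the sliding clamp, the single-strand binding proteins, Okazaki fragment joining, nucleotide supply, the regulators of S phase entry and histone supply. Of the 58 genes 57 were measured on both arrays, out of 16001 genes measured in all. POLA2, which encodes the B subunit of DNA polymerase alpha, had no probe that matched through its accession and has no value here.

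A chromosome is copied once in each cell cycle. In G1 the origin recognition complex, CDC6 and CDT1 load the ring of MCM2 to MCM7 onto origins, which is called licensing. At the start of S phase the kinases CDC7-DBF4 and cyclin E-CDK2 turn the loaded ring into the active helicase with CDC45 and the GINS complex, and polymerases, clamp and ligase follow. The E2F transcription factors drive many of these genes as cells leave G1, and embryonic stem cells are known for a short G1 and a large share of cells in S phase.

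The cells were H9, an established human embryonic stem cell line, grown without feeder cells in TeSR-E8 medium. The study moved them from vitronectin to Matrigel, an extracellular matrix preparation, at passage 35, which is also the passage of the substate 1 array. On Matrigel it distinguished a pair of substates. The R-10G epitope was high and vimentin low in substate 1, with the balance turned in substate 2, which the study described as biased towards ectoderm. Total RNA of substate 1 cells at passage 35 was hybridised to 1 array and that of substate 2 cells at passage 50 to the other, both with the dye Cy3 on 1 slide. No edit or agent is given for either group, and how the cells of a substate were separated for the arrays is not given in the sources used here. With 1 array per substate no test was possible and no difference has a replicate check. Passage, any difference in matrix or in time on Matrigel, and substate cannot be told apart. Of the 60901 non-control spots on each array, 57.4% were well above background for substate 1 and 54.7% for substate 2. On both arrays all 10 matched markers of pluripotent cells were well above background, among them POU5F1 at 7.87 and 8.14 on the log2 scale used here. Of these markers 8 were higher in substate 2 and 2 lower, PODXL (8.51 and 8.16) and TERF1 (4.83 and 4.63). Of the 10 neural progenitor markers 4 were well above background in substate 1 and 7 in substate 2, with MAP2 higher by 1.03 and FABP7 by 1.44 in substate 2, whereas PAX6, ZIC1 and NEUROG2 were not well above background on either array. POU3F2, HES5 and SOX1 were well above background in substate 2 alone, at least 13.3-fold, 1.90-fold and 1.71-fold higher there. Of the 10 mesendoderm markers 3 and 3 were well above background, TBXT and SOX17 on neither array. FOXA2 was 1.71-fold higher in substate 2 (-2.81 and -2.04), MESP1, above background there alone, at least 2.21-fold higher, and GATA4, above background in substate 1 alone, at least 1.03-fold lower. Of the 10 mesenchymal markers 7 and 7 were well above background, COL3A1, DCN and LUM on neither. Of the 7 measured, 4 were higher and 3 lower in substate 2. PDGFRA, a dim gene, was 1.57-fold higher there (-4.21 and -3.55), whereas COL1A1 (1.65 and 1.17) and COL1A2 (3.35 and 2.85) were lower. The part of such marker changes in the values of the replication genes was not tested.

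Values are log2 signals relative to the 75th percentile of the probes of the same array, so that 0 is the level of that percentile, and differences are substate 2 minus substate 1. The value of a gene is the mean over those of its probes that both arrays read well above background. Levels are compared between arrays for 1 gene and never between genes. RNA came from whole populations, so fewer cells of a kind (for example fewer cells in S phase) and less RNA per cell cannot be told apart in any value below.

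The start sites of these genes are shown first, because many replication genes are known E2F targets. The windows were taken from RefSeq on GRCh38.p14, which held 300 bases around the start of 50 of the 58 genes. MCM4, MCM5, GINS4, POLD3, RPA2, RPA3, CCNE2 and CDK2 had no entry. Printed are 200 bases, 180 before and 20 from the start, of 6 genes among those with the largest differences in favour of substate 2 and of POLE, the only gene with a negative difference. Capitals mark the E2F words TTTCCCGC, TTTCGCGC, TTTGCCGC and TTTGGCGC and the word CCAAT, on either strand.
TYMS, chr18:657473-657672, plus strand: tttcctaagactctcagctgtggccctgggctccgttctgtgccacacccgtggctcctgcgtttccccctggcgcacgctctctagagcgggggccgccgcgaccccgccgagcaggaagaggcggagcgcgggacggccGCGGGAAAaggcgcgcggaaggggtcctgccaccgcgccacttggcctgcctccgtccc
CDC6, chr17:40287699-40287898, plus strand: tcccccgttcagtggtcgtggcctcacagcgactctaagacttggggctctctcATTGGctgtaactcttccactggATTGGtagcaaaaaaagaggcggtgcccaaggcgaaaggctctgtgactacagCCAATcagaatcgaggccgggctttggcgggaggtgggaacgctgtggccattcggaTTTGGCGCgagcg
GINS3, chr16:58392291-58392490, plus strand: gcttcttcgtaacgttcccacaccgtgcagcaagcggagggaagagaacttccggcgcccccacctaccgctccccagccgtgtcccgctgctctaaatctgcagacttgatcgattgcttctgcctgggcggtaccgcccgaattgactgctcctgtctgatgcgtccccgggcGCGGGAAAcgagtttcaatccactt
RRM2, chr2:10122559-10122758, plus strand: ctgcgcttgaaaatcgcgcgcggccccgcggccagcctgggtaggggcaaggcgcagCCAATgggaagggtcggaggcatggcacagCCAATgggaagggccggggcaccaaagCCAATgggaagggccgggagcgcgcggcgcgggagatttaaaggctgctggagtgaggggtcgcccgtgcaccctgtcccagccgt
MCM2, chr3:127598231-127598430, plus strand: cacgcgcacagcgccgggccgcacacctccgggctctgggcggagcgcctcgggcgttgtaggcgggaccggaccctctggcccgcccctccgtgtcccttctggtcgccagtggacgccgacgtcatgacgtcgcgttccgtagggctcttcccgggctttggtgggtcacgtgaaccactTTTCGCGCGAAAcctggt
ASF1B, chr19:14136570-14136769, minus strand: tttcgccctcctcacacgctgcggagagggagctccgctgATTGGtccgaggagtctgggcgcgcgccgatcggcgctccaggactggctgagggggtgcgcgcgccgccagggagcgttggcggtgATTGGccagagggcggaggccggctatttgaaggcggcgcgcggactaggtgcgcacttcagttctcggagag
POLE, chr12:132687323-132687522, minus strand: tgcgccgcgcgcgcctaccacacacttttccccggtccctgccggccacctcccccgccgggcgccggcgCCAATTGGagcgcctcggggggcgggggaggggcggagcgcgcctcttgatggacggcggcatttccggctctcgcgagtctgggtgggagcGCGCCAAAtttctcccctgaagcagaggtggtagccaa

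In these windows TYMS and GINS3 held an E2F word on the strand opposite the gene, and CDC6 and MCM2 held theirs just after the start. The capitals of MCM2 are 2 E2F words, 1 on each strand, that overlap. RRM2 and ASF1B held CCAAT words and no E2F word, and POLE held both kinds. In POLE, CCAAT words on the opposite strands overlap.

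Over the 300 bases, 21 of the 50 genes (42.0%) held at least 1 E2F word, against 3.33% of the 27305 windows of all genes and 4.94% of the 12360 windows of measured genes. The E2F words were uneven over the roles. They stood in 6 of the 7 licensing genes that had a window (CDC6, CDT1, MCM2, MCM3, MCM6 and MCM7), in 4 of 8 genes of helicase activation (MCM8, GINS1, GINS2 and GINS3), in 1 of the 6 genes of the origin recognition complex (ORC3) and in 0 of the 5 genes of histone supply. Of the 28 words found, 15 began within 60 bases before the start. CCAAT stood in 27 windows (54.0%), against 35.7% of all and 36.3% of those of measured genes. TTTGAA, the core of the cell cycle homology region, stood in 3 (6.0%), against 15.4% of all and 10.3% of those of measured genes. The median GC content was 65.3% for the replication genes and 64.7% for measured genes. A match describes the letters of a window and not a site in use. The median difference was 0.36 for the 20 measured genes with an E2F word and 0.27 for the 29 without, whereas for CCAAT it was 0.27 for 27 genes with the word and 0.32 for 22 without. Over all measured genes with a window the median was 0.15 for 610 genes with an E2F word and 0.09 for 11750 without.

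As a group the replication genes lay higher on the substate 2 array, each by a small amount. The median difference over the 57 genes was 0.29, with quartiles of 0.15 and 0.44, and over all 16001 genes it was 0.08, with quartiles of -0.16 and 0.28. Of the 57 genes 56 had a positive difference, against 59.8% of all genes, and 53 (93.0%) lay above the median of all genes. ORC2, MCM8, POLE and NPAT did not. A gene was counted as higher in substate 2 from 25% upwards and as lower from 20% downwards, the same factor in either direction. By this rule 26 of the 57 genes (45.6%) were higher in substate 2, against 20.7% of all genes, and 0 were lower, against 13.5%. At 1.5-fold or more, 3 genes (5.26%), TYMS, CDC6 and GINS3, were higher, against 4.32% of all genes, a share near the background, and 0 were lower, against 5.03%. By the measure used in the study, a Z-score past 2 over all probes, 0 of the 73 probes passed in either direction, against 3.03% of all probes above 2 and 3.3% below -2, and the Z-scores of the 73 probes lay between -0.64 and 0.98.

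**Figure D1:**
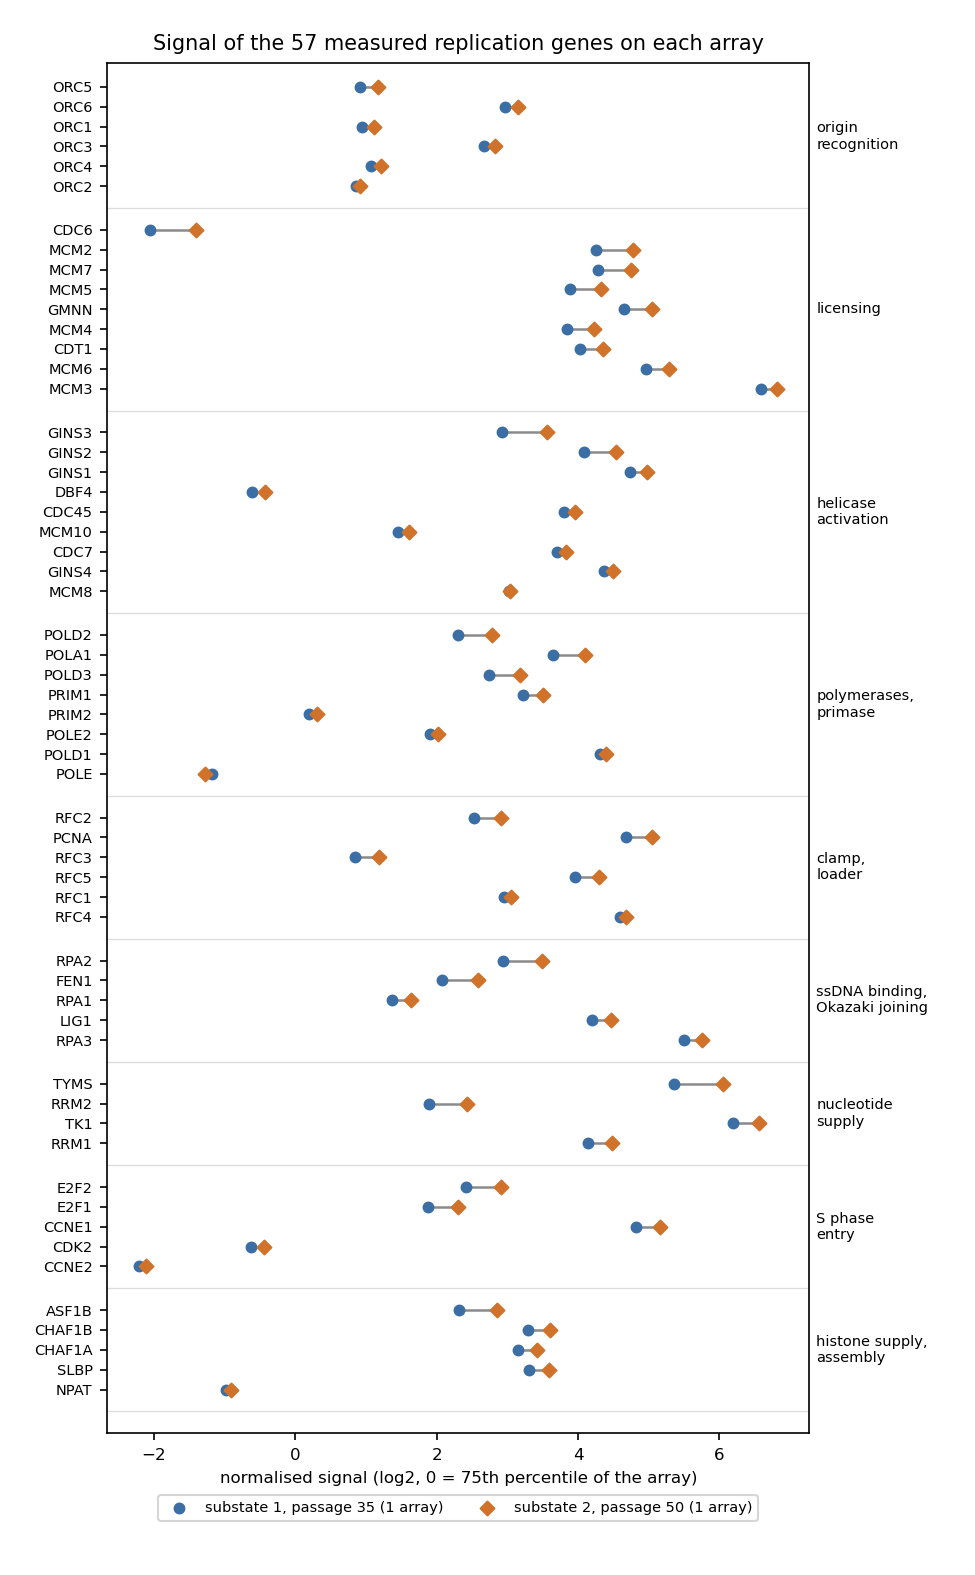
Log2 signal of the 57 measured replication genes on each array, relative to the 75th percentile of the array, with 1 point per gene and array and genes grouped by role. The substate 2 point lies to the higher side for 56 genes and to the lower side for POLE, and each array is a single sample.

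Beside these values stand 2 features of the arrays. Brighter genes lay higher in substate 2 as a whole, and 39 of the 57 replication genes were among the brightest 4000 genes, where the median of all genes was 0.19 and that of the replication genes 0.34. Within their own of 4 equal bins of signal 46 of the 57 genes lay above the median, which by construction splits all genes of a bin evenly. When the differences were centred along the signal by loess or the arrays were quantile normalised, the median of the replication genes was 0.18 and 0.19, and 14 genes reached 25% under either, against 15.6% and 16.2% of all genes. These were the same 14 genes, all among the 26: CDC6, MCM2, MCM7, GINS3, POLA1, POLD2, POLD3, RPA2, FEN1, RRM2, TYMS, E2F1, E2F2 and ASF1B. The genes lie on 20 chromosomes, and 52 of the 57 exceeded the median of their nearest measured genes, 10 on each side except for TYMS, which had 13 in all. The neighbours were not matched for signal, and the share of all genes that exceed their neighbours in this way was not computed. The count is therefore not a result about replication genes. The bins and the neighbours were examined after the values were known.

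**Figure D2:**
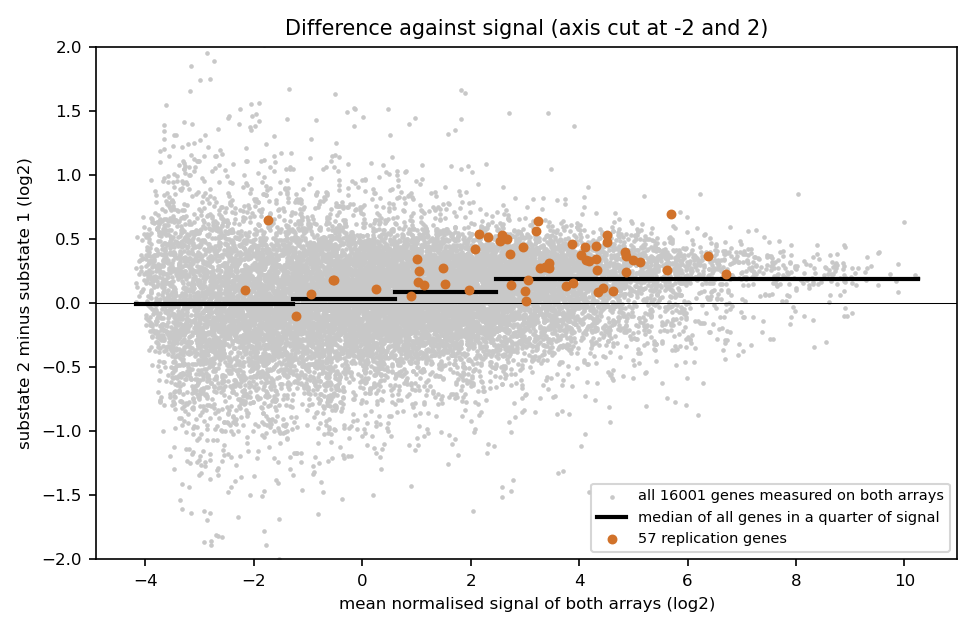
Difference, substate 2 minus substate 1, against the mean log2 signal of both arrays, for all 16001 measured genes (grey) and for the 57 replication genes, with black bars for the median of all genes in each of 4 equal bins of signal and the axis ending short of the most extreme genes. Most replication genes sit at the bright end, where 39 of them are among the brightest 4000 genes, and lie above 0.

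**Figure D3:**
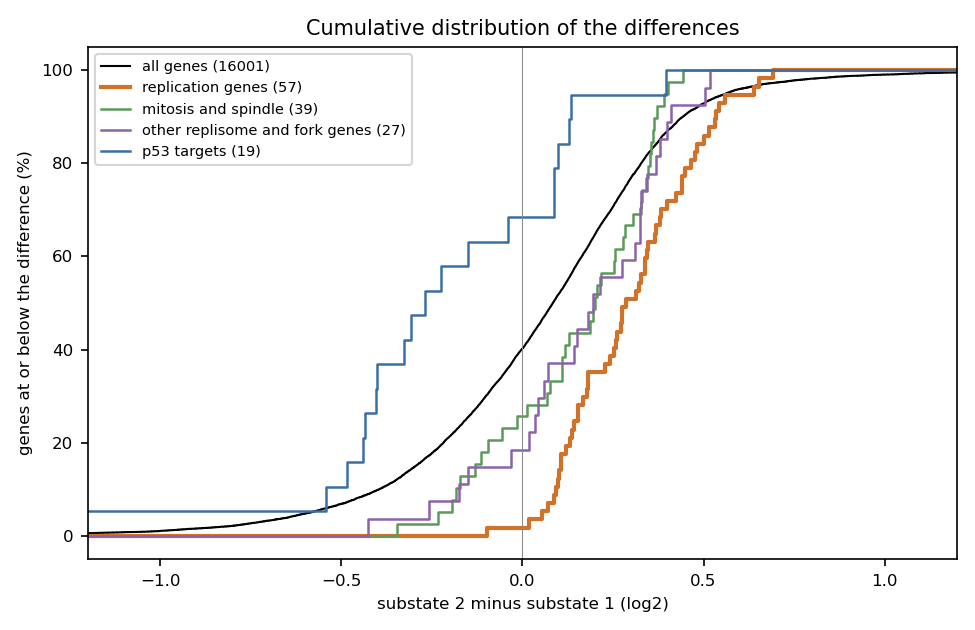
Cumulative share of genes in percent against the difference in log2 signal, substate 2 minus substate 1, for the 57 replication genes, all measured genes, 39 mitosis genes, 27 other replisome genes and 19 p53 targets, with the axis ending short of the most extreme genes. The curve of the replication genes lies to the right of that of all genes, with medians of 0.29 and 0.08.

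The origin recognition complex, the 6-part protein that marks origins, showed small differences, with a median of 0.16, and 0 of its 6 genes reached 25%. ORC5 differed most, from 0.92 in substate 1 to 1.17 in substate 2, a difference of 0.25 over 2 probes. ORC2 differed least, from 0.87 to 0.92, and its 2 probes stood at 0.13 and -0.03, on both sides of the median of all genes. ORC4 read 1.08 and 1.22, and its 2 probes also parted, at 0.25 and 0.02. ORC1, ORC3 and ORC6 lay between 0.14 and 0.18.

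The licensing genes stood higher, with a median of 0.40 over 9 genes, and 7 of the 9 reached 25%. CDC6, the ATPase that loads the MCM ring with ORC, was dim, at -2.06 in substate 1 and -1.41 in substate 2, 1.57-fold higher in substate 2. CDT1, the loading partner of CDC6, stood just inside 25% at a difference of 0.33 (4.03 and 4.35). GMNN encodes geminin, which blocks CDT1 after the start of S phase, and it read 4.64 and 5.04, a difference of 0.40. Genes of the loader and of its inhibitor thus both lay higher in substate 2. The ring itself is made of MCM2 to MCM7. All 6 of its genes exceeded the median of all genes, with a median of 0.41. MCM2 led at 4.25 and 4.78, 1.45-fold. MCM3 differed least, at 6.59 and 6.82, 1.17-fold. MCM6 stood just outside 25%, at a difference of 0.32 (4.96 and 5.28). The 2 probes of MCM5 gave 0.42 and 0.46 and those of MCM7 0.34 and 0.62. The subunits of 1 ring, which are used in equal number, spanned 0.23 to 0.53. Both ends of this span, MCM3 and MCM2, rest on 1 spot, with an SD of 0.20 for a difference by the error model of the scanner software.

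The 9 genes of helicase activation and origin firing ran from 0.02 to 0.64. Their median was 0.15 and 2 reached 25%, both in the GINS complex, the 4-part complex that joins CDC45 and the MCM ring. GINS3 read 2.92 and 3.56, 1.56-fold higher in substate 2, and GINS2 4.08 and 4.53, 1.36-fold. GINS1 and GINS4 differed by 0.24 and 0.12. GINS1, GINS3 and GINS4 rest on 1 spot each, with an SD of 0.20 for a difference by the error model of the scanner software. Whether the genes of GINS differ from each other was not tested. CDC45, at 3.81 and 3.96, and MCM10, a factor that helps to open the helicase, both differed by 0.15. The kinase CDC7 and its activator DBF4 differed by 0.13 and 0.18. MCM8, a relative of the ring that serves in recombination repair with MCM9, was nearly level at 3.02 and 3.04.

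**Figure D4:**
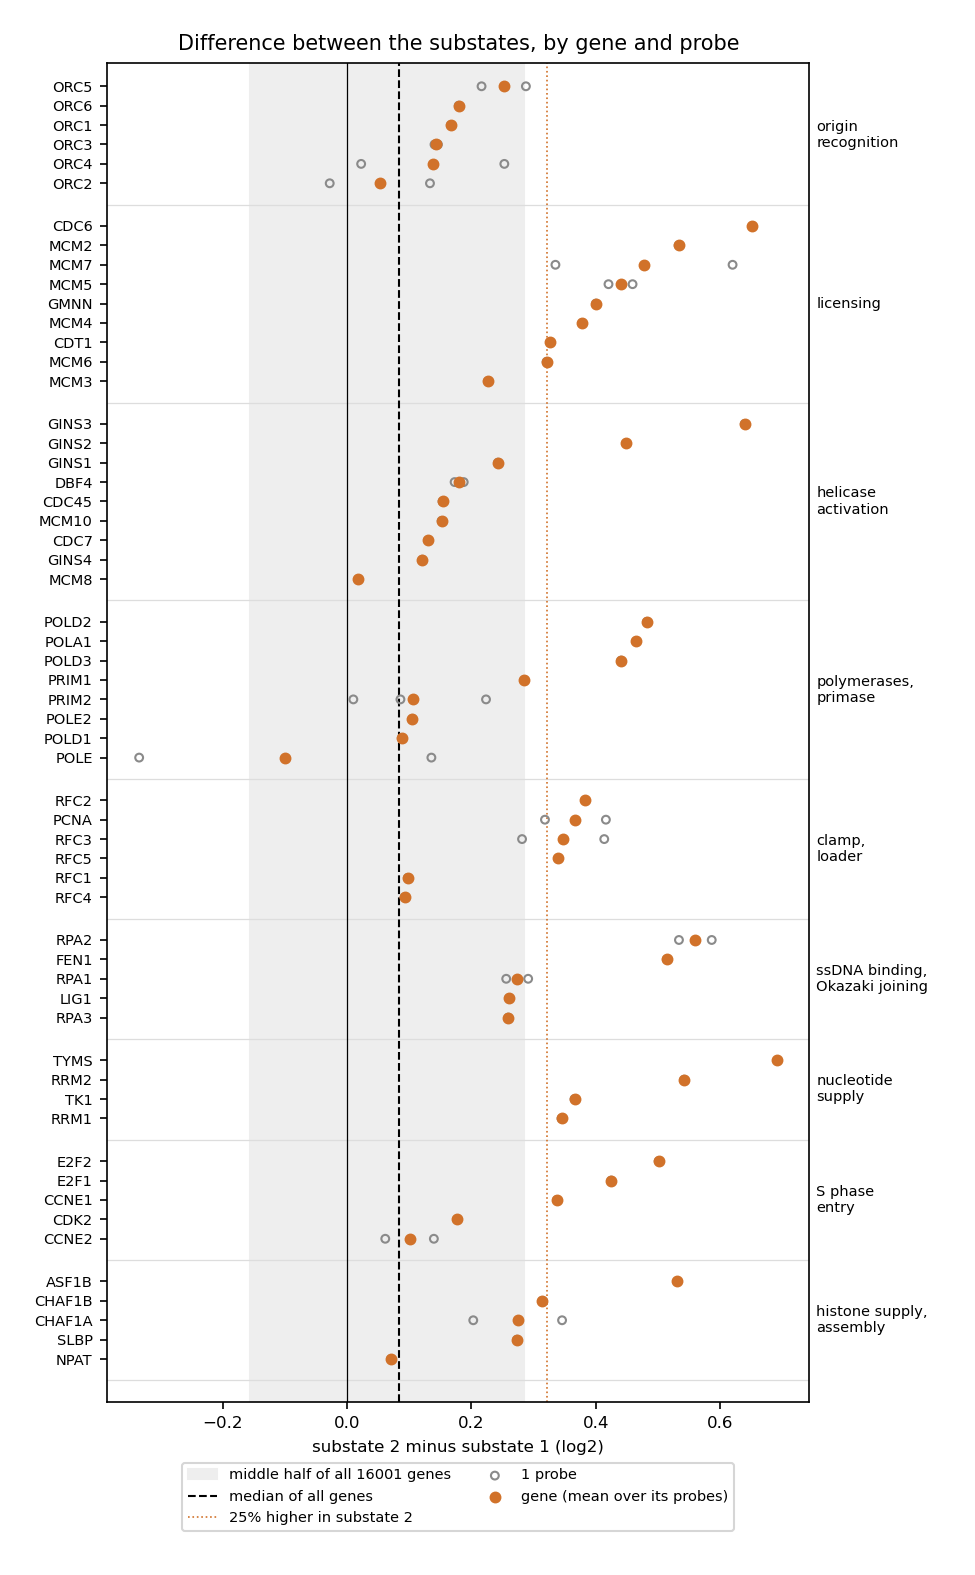
Difference in log2 signal, substate 2 minus substate 1, for each measured replication gene, grouped by role, with filled points for genes, open points for the single probes of genes with more than 1, a grey band between the quartiles of all genes and a dotted line at 25% higher. The dashed line at 0.08 is the median of all genes, and the medians of licensing and nucleotide supply are 0.40 and 0.45.

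Among the polymerases 8 of 9 genes were measured, with a median of 0.20, and 3 reached 25%. POLD2, an accessory subunit of the lagging strand polymerase delta, read 2.30 and 2.78, 1.40-fold higher in substate 2. POLD3, from the same enzyme, differed by 0.44 and POLA1, the catalytic subunit that starts each strand, by 0.46 (3.64 and 4.11). The catalytic subunit of polymerase delta, POLD1, was almost level at 4.31 and 4.40. PRIM1, which makes the RNA primer, differed by 0.29, and PRIM2, its partner, by 0.11 (0.20 and 0.30) over 3 probes at 0.01, 0.09 and 0.22. POLE, the leading strand polymerase, was the 1 gene with a negative value, -1.18 and -1.27, a difference of -0.10. Its 2 probes went opposite ways, one from -2.03 to -2.36 and the other from -0.32 to -0.19. This gap of 0.47 was the largest between probes of a replication gene, so the gene has no clear direction. POLE2, of the same enzyme, differed by 0.11.

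The clamp and its loader followed. PCNA, the ring that holds polymerases to DNA, read 4.68 and 5.05, 1.29-fold higher in substate 2, with probes at 0.32 and 0.42. RFC2 led the loader genes at 2.53 and 2.91, 1.30-fold, and RFC3 and RFC5 differed by 0.35 and 0.34. RFC4, at 4.59 and 4.68, and RFC1, at a difference of 0.10, were close to the median of all genes. Thus 4 of the 6 genes passed 25%.

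For single-strand binding and joining, 2 of 5 genes passed. RPA2, the middle subunit of replication protein A, which coats unwound DNA, read 2.93 and 3.49, 1.47-fold higher in substate 2, with its 2 probes at 0.53 and 0.59. RPA1 and RPA3 differed by 0.27 and 0.26, and RPA3 differed least in the role (5.49 and 5.75). FEN1, the flap nuclease that trims Okazaki fragments, read 2.07 and 2.59, 1.43-fold. LIG1, the ligase that seals them, differed by 0.26.

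Nucleotide supply had a median of 0.45, the largest of the roles except with normexp background correction, where licensing stood at 0.41 and nucleotide supply at 0.40, and all 4 of its genes passed 25%. TYMS, thymidylate synthase, which makes the thymine nucleotide, read 5.35 and 6.05, 1.62-fold higher in substate 2. This was the largest difference of the 57 genes as scaled here. CDC6 exceeded it with loess centring (0.69 against 0.52) and quantile normalisation (0.69 against 0.55), and GINS3 (0.53) also did with loess. With normexp TYMS stood at 0.43 and many genes exceeded it. These were POLA1 (0.58), ASF1B, GINS3, POLD2, RRM2, RPA2, MCM2, CDT1, FEN1, MCM7 and GINS2. RRM2, the regulatory subunit of ribonucleotide reductase whose level is known to follow S phase, read 1.89 and 2.43, 1.46-fold. RRM1, its stable catalytic partner, differed least at 4.14 and 4.48, 1.27-fold. TK1, thymidine kinase of the salvage path, read 6.19 and 6.56, 1.29-fold.

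The regulators of S phase entry had a median of 0.34, and 3 of 5 passed. The transcription factors E2F2, at 2.41 and 2.92, and E2F1, at 1.88 and 2.30, were 1.42-fold and 1.34-fold higher in substate 2. CCNE1, the cyclin of the G1 to S step, differed by 0.34 (4.82 and 5.16). CCNE2, its dim relative, differed by 0.10 (-2.21 and -2.11), with probes at 0.14 and 0.06 on both sides of the median of all genes, and CDK2, the kinase they activate, by 0.18.

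Histone supply and chromatin assembly had a median of 0.27, and 1 of 5 genes passed. ASF1B, a histone chaperone of dividing cells, read 2.32 and 2.85, 1.45-fold higher in substate 2. CHAF1A and CHAF1B, which place histones on new DNA as parts of CAF-1, differed by 0.27 and 0.31, and SLBP, which binds the stem-loop of histone mRNA, by 0.27. NPAT, the activator of histone genes, differed least at -0.98 and -0.91.

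The error that can be measured on these arrays is between spots of a probe, which leaves out the cells, the RNA and the labelling. The array design prints 5 of the genes 10 times. For GINS2 the spots ran from 4.01 through a median of 4.09 to 4.14 in substate 1 and from 4.49 through 4.53 to 4.59 in substate 2. E2F1 ran from 1.83 through 1.88 to 1.94 and from 2.12 through 2.33 to 2.35. CHAF1B ran from 3.24 through 3.28 to 3.39 and from 3.53 through 3.62 to 3.65. In these genes, and in the other 2 as well, every spot of the substate 2 array exceeded every spot of the substate 1 array. How many of all 291 repeated probes above background on both arrays separate in this way was not counted. The separation is therefore not a result about replication genes. PRIM1 ran from 3.16 through 3.24 to 3.29 and from 3.37 through 3.53 to 3.60. ORC6, with the smallest difference of the 5 genes at 0.18, ran from 2.91 through 2.98 to 3.02 and from 3.05 through 3.15 to 3.25. For a gene with 1 spot, the error model of the scanner software gave an SD of 0.20 for the difference. Of the 15 genes with at least 2 probes, 13 had all probes on the same side of 0, with ORC2 and POLE the exceptions. Of the 73 probes 71 were higher in substate 2. Of all probes above background on both arrays, matched to a gene or not, 56.0% were higher.

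**Figure D5:**
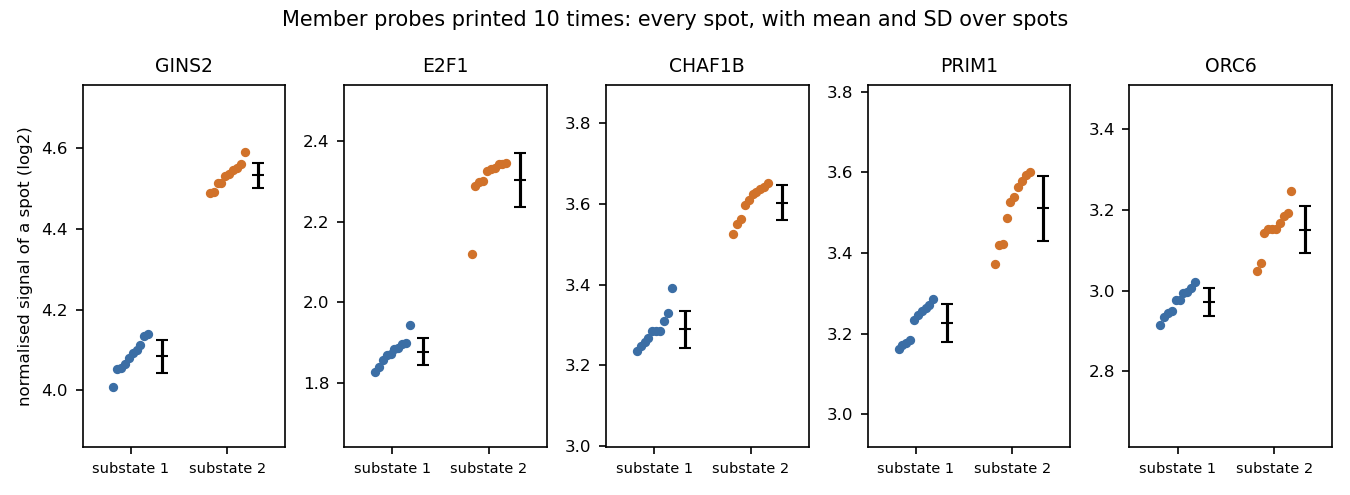
Log2 signal of each of the 10 spots per array of the 5 replication genes printed 10 times, ordered by value within an array, with bars for the mean and SD over the spots and an axis of its own for each gene. The spots of the 2 arrays do not overlap for any of the 5 genes, and they show printing error within an array and not the spread between cultures. How often other repeated probes separate was not counted.

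Genes of the wider pathway that are not on the list were also read. Of 81 such genes 77 were measured, with a median of 0.22. Of these 51 (66.2%) lay above the median of all genes, 28 (36.4%) were at least 25% higher and 2 at least 20% lower. UHRF1, which brings DNA methylation to newly copied DNA, was the largest at 1.31 and 2.35, 2.06-fold higher in substate 2, with its probes at 1.02 and 1.06. CDKN1C, an inhibitor of the cyclin-dependent kinases, was also higher, 1.77-fold (2.92 and 3.74). CDKN1A, the p53-driven inhibitor, had a probe well above background in substate 1 and not in substate 2, at least 1.42-fold lower in substate 2 (-3.69 and -6.19). Among the 27 other replisome genes 10 were higher by that rule and 1, ATAD5, lower. Among 12 S phase checkpoint genes 5 were higher and 0 lower. Among the 19 measured G1 cyclins, CDKs and RB family genes 7 were higher and 1, RBL2, lower.

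Mitosis genes, which act later in the cycle, also gave lower shares than the replication genes, with a median close to that of the other replisome genes. Of 39 measured, 26 (66.7%) lay above the median of all genes, 12 (30.8%) were at least 25% higher and 1, ANLN, was at least 20% lower, with a median of 0.20 against 0.29 for the replication genes. MKI67, the proliferation marker, read 1.95 and 1.85. The medians were 0.07 for mitosis and 0.18 for replication with loess centring, and 0.21 and 0.25 with normexp. The 19 measured p53 targets lay the other way, with a median of -0.27 and 8 genes at least 20% lower, among them GDF15 at 3.49 and 2.02. Whether any of these lists differs from the replication genes was not tested, since genes of 1 pair of arrays are not replicates.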

How the data were processed

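Total RNA of 2 H9 cultures, 1 per substate, was hybridised to Agilent arrays, and groups were taken from the sample titles. The authors deposited an intensity for every spot, which per the file headers was background-subtracted and detrended by Feature Extraction 11.5.1.1 (protocol GE1_1105_Oct12). The authors also deposited log2 values shifted by the 75th percentile of each array, which served as an alternative.

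Here intensities under 1 were set to 1 (0 spots), outlier spots were left out, log2 was taken, repeat spots were averaged per probe, and each array was shifted by the 75th percentile of its non-control probes. Of 58201 probes 31104 (53.4%) were named through their RefSeq accession in a table for GRCh38.p14. The array was annotated on hg19, so no coordinates of probes are given. Genes were means over probes well above background on both arrays. The number of arrays limits the precision. A gene was counted past 1.25-fold (25% higher, or 20% lower) or 1.5-fold, a rule of size and not a test. Z-scores were the difference minus its mean over all probes, divided by its SD. For a gene above background on 1 array the fold is a bound, taken against its own dim value or, if higher, the lowest signal that passed on that array.

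The members and lists were chosen with earlier results of these data known. All members are accounted for. Values on both arrays are given for the extremes of each role, members past 1.5-fold and members with probes on both sides of the median of all genes, and for others chosen after their values were seen. Of the other lists, genes past 1.5-fold are named. Promoters were printed for up to 6 large rises and 2 falls. The normexp alternative (limma 3.58.1 in R 4.3.3, offset 50) was planned on mean signals and was run on median spot and background signals, which are the columns given. Other steps used Python 3.11.15, pandas 2.3.3, numpy 2.4.6 and statsmodels 0.14.6 (loess span 0.3), and the gene step was tested on simulated data. Other alternatives were median scaling, the percentile over probes above background on both arrays, quantile normalisation, the filter on dim probes, outlier spots kept, and the median or brightest probe of a gene.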

Additional observations from a re-analysis of the deposited data

How the results depend on the processing

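The excess of the replication genes over the median of all genes held in direction under the 11 alternatives. Several of these could not change it. Median scaling, the percentile over probes above background on both arrays and the deposited values shift all genes alike and left it at 0.20. Keeping outlier spots left the member values and the excess as they were. Changing the filter on dim probes left the member values as they were but moved the median of all genes. The excess was 0.21 with probes above background on at least 1 array and 0.16 with no filter on dim probes. The excess was 0.15 with quantile normalisation and loess centring, 0.17 with normexp and 0.21 with the brightest probe. The median difference of the members was 0.19 with quantile normalisation and 0.18 with loess centring, against 0.29, and 14 members were at least 25% higher under either, against 26. At 1.5-fold or more 1 member was higher with quantile normalisation, 1 with loess centring and 0 with normexp, against 3. With normexp 6 of the 73 member probes passed a Z-score of 2, all upwards, against 0 without it. They lie in ASF1B, GINS3, POLD2, RPA2, POLA1 and MCM7. Of all probes 1.4% passed upwards with normexp. The SD that divides the Z-score was 0.23 there, against 0.63, so smaller differences passed. Members above the median of all genes numbered 46 to 54 over the alternatives, with the 46 under no filter on dim probes. The median of all genes itself lay between 0.02 and 0.13. Of 627 values for single members under an alternative, 522 moved by less than 0.0692, the SD of a difference from the spots of replicated probes. The other 105 moved by more, and 0 changed sign after passing 25%. Many of the 522 belong to alternatives that shift all genes alike or leave the member values as they were. Of the 57 members 50 stayed higher in substate 2 under all scalings. MCM8, GINS4, POLD1, POLE and RFC4 lay below 0 with quantile normalisation, and these and RFC1 with loess. With the percentile over probes above background on both arrays ORC2 (-0.008), MCM8 (-0.04) and POLE (-0.16) did. With normexp MCM8 (-0.16) and POLE (-0.03) did. The causes were not tested. No paired analysis was possible because a single array stood for each substate, which also left none to omit. The measured error covers spots only. CDC6, a dim gene, differed by 0.43 with normexp, against 0.65.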

Other observations

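The array also carries 30 probes for long noncoding RNAs whose names are built on 20 of the replication genes, a naming by position that says nothing of a link. Of these 13 were well above background on both arrays and 15 on neither. The probe lnc-MCM5-1:2 read -1.82 in substate 1 and -2.67 in substate 2, a difference of -0.85, and lnc-RPA2-1:1 read -0.93 and -1.47, a difference of -0.55, while MCM5 and RPA2 were higher by 0.44 and 0.56. The probe lnc-POLE2-1:1 read 1.80 and 1.48, and lnc-GINS2-1:1 read -0.67 and -0.30. These probes were chosen after their values were seen.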
